A study of Arabidopsis thaliana with 8 samples.

Results

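Ribosomal protein genes were taken as the nuclear protein-coding genes of Arabidopsis thaliana whose RefSeq product name begins with "ribosomal protein", "40S" or "60S". This rule gave 304 of the 27444 protein-coding genes on chromosomes 1 to 5. R-loops were mapped in whole seedlings by DRIP-seq, in which the S9.6 antibody pulls down DNA:RNA hybrids from sheared nucleic acid. The ndx1-4 mutant of the NODULIN HOMEOBOX (NDX) gene and the Col-0 wild type were both harvested at 10 days of age, with 4 libraries each: 1 input, 2 S9.6 immunoprecipitations and 1 immunoprecipitation after RNase H, which digests the RNA of a hybrid. The files analysed hold 1 list of peaks per genotype, so every difference between ndx1-4 and Col-0 below is a difference between 2 lists, with no replicate error and no test. The series was made to study NDX in heterochromatin, and the comparison at these genes asks where their peaks lie and whether the 2 lists differ there.

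Ribosomal proteins bind ribosomal RNA to form the small and large ribosomal subunits. Plants make a cytosolic ribosome, encoded by several near-identical paralogues of each protein, and separate bacterial-type ribosomes in plastids and mitochondria, many of whose proteins are encoded in the nucleus. An R-loop forms when a nascent RNA pairs back with its template DNA strand and leaves the other strand single, often close to the start of a transcribed gene. Cytosolic ribosomal protein genes are among the most strongly transcribed genes of growing tissue, and their promoters often carry telo boxes and site II elements.

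The name rule also takes in genes that are no ribosomal proteins. The RefSeq notes describe 254 of the 304 as structural constituents of the ribosome and give no such function for the other 50, among them LOS1 (AT1G56070), a translation elongation factor, and AT5G53920, a methyltransferase-like protein. A few genes without the note are likely ribosomal by name, such as RPS19 (AT5G47320) and RPS10 (AT3G22300). The notes place 75 members in the cytosolic large subunit, 65 in the cytosolic small subunit and 16 in the cytosolic ribosome without a subunit. They give a chloroplast location for 30, a mitochondrial one for 5 and neither for the remaining 63 structural members. The locations are not a clean sorting of ribosome types: the chloroplast class holds genes with cytosolic-type names, such as RPL10B (AT1G26910).

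A gene was counted as having a peak where a peak touched its body or the 500 bases on either side. In the ndx1-4 list 84 of 304 members had a peak (27.6%, 95% Wilson interval 22.9 to 32.9%), beside 36.0% of all protein-coding genes. In the Col-0 list 90 members had one (29.6%, 24.8 to 35.0%), beside 37.6% of all protein-coding genes. Both backgrounds lie above the upper end of the members' interval. In both lists together 79 members had a peak (26.0%, beside 34.0% of all protein-coding genes), and 209 members (68.8%) had none in either. Intervals cover counting error only, and the members themselves are part of the background. In whole seedlings a hybrid formed in few cells and a weak hybrid formed in many cannot be told apart, and a gene without a peak is one that these calls did not reach, since the depth of the libraries is unknown.

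Members were shorter than protein-coding genes in general. The median member was 1566 bases long, and the median protein-coding gene 2078 bases. The share with a peak was higher in longer genes: of all protein-coding genes under 1000 bases 21.0% had one in the ndx1-4 list and 22.1% in the Col-0 list, and of those of 2500 bases or more 46.9% and 48.9%. Weighting all protein-coding genes to the members' 5 length classes gave 30.9% in the ndx1-4 list and 32.4% in the Col-0 list, which lie within the members' intervals. The members' shares minus these were -3.31 points in the ndx1-4 list and -2.84 points in the Col-0 list. The members were not low in every class. From 1500 to under 2000 bases 27 of 117 members had a peak in the ndx1-4 list (23.1%), beside 32.1% of all genes of that length, and in the Col-0 list 30 had one (25.6%, beside 33.4%). From 2500 bases upward 10 of 18 members had a peak in the ndx1-4 list (55.6%, beside 46.9%) and 11 in the Col-0 list (61.1%, beside 48.9%).

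**Figure D1:**
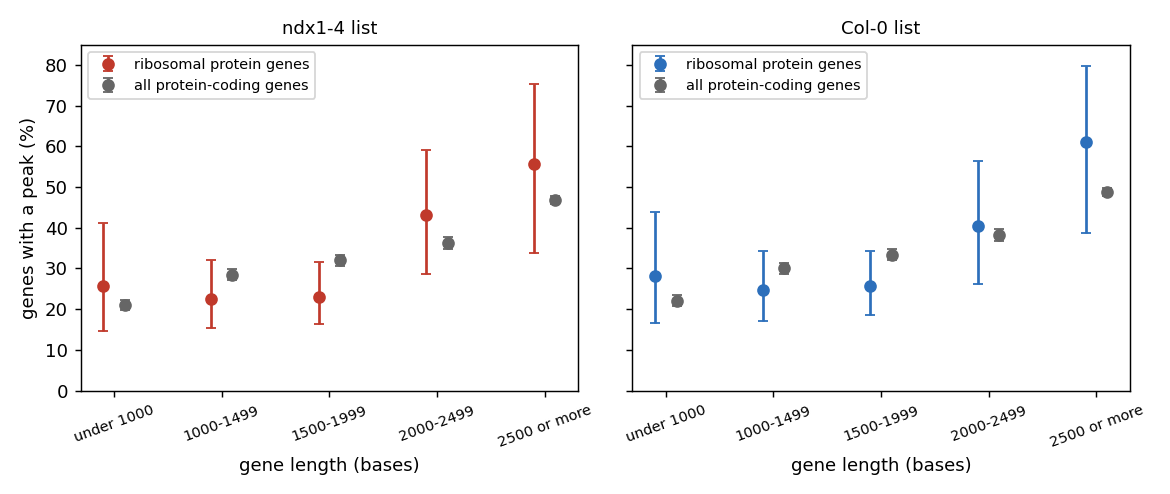
Share of genes with a peak (vertical axis, %) by gene length class (horizontal axis, bases), in the ndx1-4 list (left panel) and the Col-0 list (right panel). Coloured points are the ribosomal protein genes, grey points all protein-coding genes, and bars are 95% Wilson intervals. Members lie below all genes from 1000 to under 2000 bases and above them in the other classes.

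By ribosome part, the small cytosolic subunit had the lowest share among the classes with 30 or more genes. Of its 65 members, 11 had a peak in the ndx1-4 list (16.9%, 9.72 to 27.8%) and 12 in the Col-0 list (18.5%, 10.9 to 29.6%), beside length-weighted shares of all protein-coding genes of 30.0% and 31.5%, which lie just above its intervals. Of the 75 members of the large cytosolic subunit, 21 had a peak in the ndx1-4 list (28.0%, 19.1 to 39.0%) and 24 in the Col-0 list (32.0%, 22.5 to 43.2%), beside 30.1% and 31.6%. Of the 30 members with a chloroplast location, 13 had a peak in each list (43.3%, 27.4 to 60.8%). The length-weighted shares beside them, 32.2% in the ndx1-4 list and 33.8% in the Col-0 list, lie within that interval. Without the L34e and L16p/L10e names 9 of 24 had a peak in each list (37.5%). The 63 other structural members had 20 with a peak in each list (31.7%, beside 31.1% in ndx1-4 and 32.6% in Col-0). The 50 not annotated as structural had 16 in the ndx1-4 list (32.0%, beside 33.0%) and 18 in the Col-0 list (36.0%, beside 34.6%). The intervals of these classes overlap or nearly meet, so their order is a description. Of the 16 members placed in the cytosolic ribosome without a subunit, which include the acidic stalk proteins, 2 had a peak in each list (12.5%, 3.50 to 36.0%). The length-weighted shares beside them were 28.3% in the ndx1-4 list and 29.8% in the Col-0 list. Of the 5 with a mitochondrial location 1 had a peak in each list, and not the same one: NFD1 (AT4G30930), the L21 protein of the mitochondrial ribosome, in the ndx1-4 list and AT1G70190, an L7/L12 protein, in the Col-0 list.

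**Figure D2:**
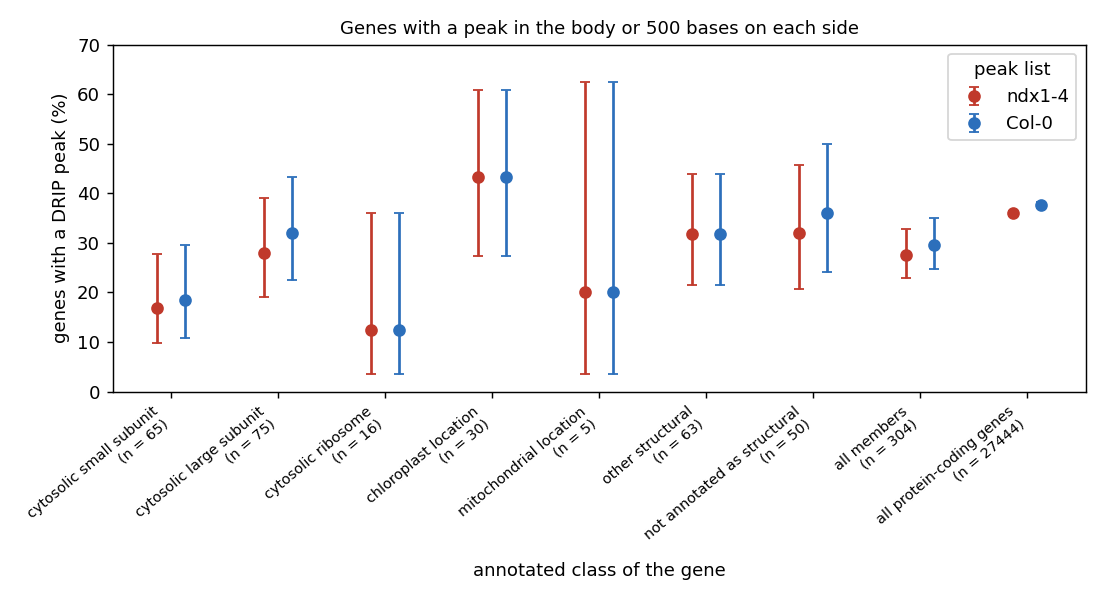
Share of genes with a peak in the body or 500 bases on each side (vertical axis, %) for each annotated class, for the ndx1-4 list (red) and the Col-0 list (blue). Points are shares and bars 95% Wilson intervals: the small cytosolic subunit stands at 16.9% and 18.5%, the chloroplast class at 43.3% in both lists, and all members at 27.6% and 29.6% beside 36.0% and 37.6% of all protein-coding genes.

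Peaks were also counted by groups of paralogues. Grouped by product name, 48 families had 3 or more genes (213 genes in all). In 18 families, with 60 genes, no gene had a peak in either list, and in no family did every gene have one in both lists. Over all members 68.8% had no peak in either list and 26.0% had one in both. Whether paralogues share peaks more or less often than unrelated members was not tested. The families without a peak include S3, S25, S26e, S30, S19e and S12/S23 of the small subunit, and L11, L14p/L23e, L17 and L39 of the large subunit, with 3 to 5 genes each. By contrast 4 of the 6 L34e genes had a peak in both lists. Of the 5 genes for L41, the smallest protein of the ribosome, 3 had a peak in the ndx1-4 list and 4 in the Col-0 list. The product names split some proteins and merge others, so these are groups by name. Reads from near-identical copies can fit several places. In AT1G58684, AT1G58983 and AT1G59359, of the S5 family, 100% of the 31-base words occur more than once in the nuclear reference. None of the 3 had a peak. Such copies were few. In 24 of the 304 members over 10% of words were repeated, 8 of the 95 with a peak in either list and 16 of the 209 without. In 4, all without a peak, over 50% were repeated. An effect of repeated words on the calls was not tested.

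Within genes, a smaller share of members than of all protein-coding genes had a peak in the body or over the start. A peak touched the body of 60 members in the ndx1-4 list (19.7%, beside 28.2% of all protein-coding genes) and of 62 in the Col-0 list (20.4%, beside 29.6%). These body shares were not weighted for the shorter length of the members. Per body base, peaks covered 4.10% of members in the ndx1-4 list, beside 4.65% of all protein-coding genes, and 4.63% in the Col-0 list, beside 5.07%. A peak held the annotated start of 16 members in the ndx1-4 list (5.26%, beside 9.30%) and of 18 in the Col-0 list (5.92%, beside 9.89%). Averaged over members, coverage was highest 200 to 300 bases inside the gene, where 8.04% of positions lay under an ndx1-4 peak and 8.79% under a Col-0 peak. All protein-coding genes had 10.9% and 11.6% there and their highest values, 11.4% and 12%, in the bin of 100 to 200 bases. Before the start members were lower too, in 4 of the 6 upstream bins in both lists, and higher only between 400 and 200 bases before it. In the bin of 300 to 200 bases before the start 4.95% of member positions lay under an ndx1-4 peak and 5.36% under a Col-0 peak, beside 4.26% and 4.57% in all protein-coding genes.

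**Figure D3:**
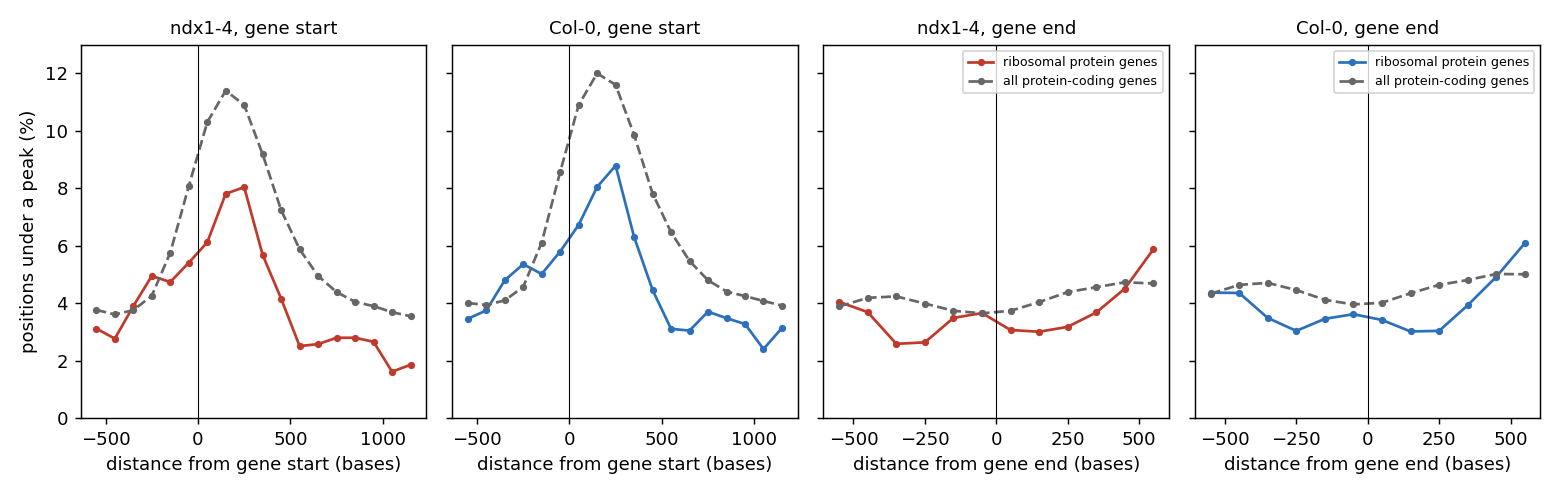
Share of positions under a peak (vertical axis, %) in bins of 100 bases by distance from the gene start (left pair of panels) and gene end (right pair), for the ndx1-4 list (red) and the Col-0 list (blue). Solid lines are the ribosomal protein genes and dashed grey lines all protein-coding genes; members peak at 8.04% and 8.79% inside the start and stay below the dashed line there.

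The members were linked to 93 peaks in the ndx1-4 list and 99 in the Col-0 list. No member had 3 or more peaks, and 10 had 2 in the ndx1-4 list, against 11 in the Col-0 list. Some linked peaks did not touch the member itself: 31 in the ndx1-4 list (33.3%) and 35 in the Col-0 list (35.4%) lay in the flanks only. Of these, 23 and 26 touched the body of another annotated gene. Peaks per gene and flank-only peaks were not counted over all protein-coding genes. In the ndx1-4 list 27.6% of members had a peak in the window and 19.7% in the body. All protein-coding genes had 36.0% and 28.2%. In the Col-0 list these shares were 29.6% and 20.4% of members, beside 37.6% and 29.6%. Of the peak bases within member windows, the 5' UTR held 13.3% in the ndx1-4 list and 12.3% in the Col-0 list, coding sequence 18.4% and 21.8%, introns 19.0% and 18.2%, and the 3' UTR 12% and 11.1%. Over all protein-coding genes the 5' UTR held 19.5% and 19.0%, coding sequence 30.1% and 30.9%, introns 14.8% in each list, and the 3' UTR 5.92% and 6.03%. Introns made up 19.9% of the members' window bases and the 3' UTR 11.7%. Per base of feature within members, 8.46% of the 5' UTR was covered in the ndx1-4 list and 8.79% in the Col-0 list. Coverage was 3.12% and 4.12% of coding sequence, 3.84% and 4.13% of introns, and 4.15% and 4.28% of the 3' UTR. Over the members' whole windows it was 4.03% and 4.51%. Shares per base of feature were not computed for all genes. The 3' UTR share rests in part on AT4G13170, a large-subunit L13 gene of 3001 bases, where 1227 bases of annotated 3' UTR lay under a peak in each list. That peak also touched the neighbouring gene AT4G13160.

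Member peaks had a median length of 380 bases in both lists (95% interval 340 to 420 bases), beside 340 bases for all nuclear peaks of each list. The deposited scores were used only for rank within a list. The median member peak stood at percentile 43.2 of the ndx1-4 list and 45.3 of the Col-0 list, and 42 of 93 and 45 of 99 member peaks (45.2% and 45.5%) reached the upper 50%. The highest-ranked member peak of the ndx1-4 list lay in AT3G58660, named for the L1p/L10e fold, with a score of 215 (percentile 97.6). The same gene held the highest-ranked member peak of the Col-0 list, with 236 (percentile 97.5). Its peak was 480 bases long in the ndx1-4 list and 520 bases in the Col-0 list and lay wholly in the coding sequence, from 761 to 1240 and from 741 to 1260 bases past the start. The next member ranks in both lists were held by AT4G22380, an L7Ae/L30e-type gene with its peak just past the gene end, and AT3G44010, an S29 gene of the small subunit. The AT3G44010 peak held the start and ran from -453 to 86 bases around it in the ndx1-4 list and from -513 to 46 in the Col-0 list. In both lists the AT4G22380 peak also touched the gene AT4G22370, and the AT3G44010 peak the gene AT3G44020. Some of the 8 highest member peaks lay mostly outside the member's window. At AT4G18100, for L32, the peaks of 1440 bases in the ndx1-4 list and 1400 in the Col-0 list reached only 53 and 13 bases into its window. At AT2G37600, for L36, 34 bases of a peak with scores of 165 and 183 reached its upstream flank in each list. AT3G18740, also an L7Ae/L30e-type gene, had a peak of 500 bases past its end, which also touched the gene AT3G18750. It stood at percentile 89.7 in the ndx1-4 list and 93.2 in the Col-0 list. AT5G57290, for an acidic stalk protein, was the only one of the 11 genes of that name with a peak, at score percentiles of 90.5 in the ndx1-4 list and 89.9 in the Col-0 list, and none of its body was covered.

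Peaks of members varied widely in base composition. On the coding strand their purine share ran from 30.4% to 65.8% in the ndx1-4 list and from 31.2% to 67.5% in the Col-0 list, and the peak at AT3G58660 had the highest share in the ndx1-4 list (65.8%). Pooled over gene bodies, peak bases of members held 47.7% purines and 36.7% GC in the ndx1-4 list, and 49.0% and 37.0% in the Col-0 list, close to the 48.1% and 38.7% of the members' bodies as a whole. The middle 240 bases of 3 gene-body peaks are shown. They set the purine-rich sequence of the highest-ranked member peak beside the highest-ranked member body peaks seen in the Col-0 list alone, at AT2G42650 and AT1G64880. Sequences are from the TAIR10.1 reference, 5' to 3' on the coding strand, and capitals mark runs of 8 or more purines.
AT3G58660, Chr3:21702401-21702640, plus strand: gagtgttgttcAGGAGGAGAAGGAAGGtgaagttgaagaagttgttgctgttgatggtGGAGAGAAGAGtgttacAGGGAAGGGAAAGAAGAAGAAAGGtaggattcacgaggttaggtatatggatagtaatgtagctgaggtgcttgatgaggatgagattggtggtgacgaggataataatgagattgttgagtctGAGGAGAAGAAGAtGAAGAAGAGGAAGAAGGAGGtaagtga
AT2G42650, Chr2:17766341-17766580, plus strand: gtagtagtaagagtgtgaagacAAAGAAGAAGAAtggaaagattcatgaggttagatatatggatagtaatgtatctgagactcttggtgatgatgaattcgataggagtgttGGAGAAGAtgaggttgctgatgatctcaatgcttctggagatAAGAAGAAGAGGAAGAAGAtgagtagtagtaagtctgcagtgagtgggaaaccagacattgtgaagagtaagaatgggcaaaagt
AT1G64880, Chr1:24106241-24106480, plus strand: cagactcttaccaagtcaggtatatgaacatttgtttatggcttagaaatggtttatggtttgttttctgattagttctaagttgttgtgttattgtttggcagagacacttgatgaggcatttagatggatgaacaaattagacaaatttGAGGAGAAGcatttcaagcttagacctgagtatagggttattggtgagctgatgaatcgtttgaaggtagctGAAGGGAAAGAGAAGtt
The stretch of AT3G58660 holds 5 such runs, the longest of 24 bases. That of AT2G42650, of the same L1p/L10e family, holds 3, the longest of 19, and that of AT1G64880 holds 2, the longest of 15. Not all peaks in coding sequence hold long runs. The whole ndx1-4 peak of 220 bases at AT3G18240 holds 3, the longest of 9, and that of 240 bases at AT4G12600 holds 0. Runs outside peaks were not counted.

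The window upstream of a gene takes in its promoter, which was searched for motifs known from ribosomal protein genes. In the 250 bases before the start, on either strand, the telo box AAACCCTA was found in 51 members (16.8%), beside 4.49% of all protein-coding genes. A site II element, TGGGCC or TGGGCT, was found in 172 members (56.6%), beside 19.2%. TATAAA was found in 145 (47.7%), beside 47.3%. Promoters are counted once however many matches they hold. The share with a site II element was 54.7% in the 95 members with a peak in either list and 57.4% in the 209 without one, and that with a telo box 17.9% and 16.3%. Where a peak lay over the 250 bases themselves, 13 of 24 promoters in the ndx1-4 list and 17 of 28 in the Col-0 list held a site II element. A peak covered at least 80 of the 250 bases in both lists at 6 promoters that hold a telo box or site II element and no annotated UTR of a gene. Of these, 3 are printed as examples chosen after their values were seen: the 2 with the most bases under peaks, and a cytosolic gene with 4 matches. Capitals mark telo boxes and site II elements on either strand, and the last base is the one before the annotated start.
AT1G36240, an L7Ae/L30e-type gene, Chr1:13614640-13614889, plus strand: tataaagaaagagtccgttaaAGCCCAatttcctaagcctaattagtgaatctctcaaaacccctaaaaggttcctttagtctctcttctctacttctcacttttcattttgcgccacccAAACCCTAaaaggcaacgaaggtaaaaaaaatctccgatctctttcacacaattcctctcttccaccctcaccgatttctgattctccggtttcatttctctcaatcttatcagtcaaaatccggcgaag
AT3G13120, an S10p/S20e gene with a chloroplast location, Chr3:4221667-4221916, minus strand: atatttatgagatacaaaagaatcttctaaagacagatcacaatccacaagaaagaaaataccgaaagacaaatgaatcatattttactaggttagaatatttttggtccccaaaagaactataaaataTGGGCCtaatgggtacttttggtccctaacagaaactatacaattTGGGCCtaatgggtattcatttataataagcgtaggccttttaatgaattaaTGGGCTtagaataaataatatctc
AT5G56710, an L31e gene of the large subunit, Chr5:22944994-22945243, minus strand: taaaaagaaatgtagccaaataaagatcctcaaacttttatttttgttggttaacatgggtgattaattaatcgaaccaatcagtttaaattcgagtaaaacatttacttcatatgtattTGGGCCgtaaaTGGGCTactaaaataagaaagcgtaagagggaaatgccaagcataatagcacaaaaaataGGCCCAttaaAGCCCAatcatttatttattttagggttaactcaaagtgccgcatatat
Peaks covered 250 of the 250 bases of AT1G36240 in both lists. They covered 250 bases of AT3G13120 in the ndx1-4 list and 236 in the Col-0 list, and 127 and 87 bases of AT5G56710. The annotation of AT1G36240 begins with coding sequence, so its 250 bases may include a 5' UTR that is not annotated. A match of letters does not show that a factor binds there.

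Between the lists most member peaks were shared. Of the member peaks, 86 of 93 in the ndx1-4 list (92.5%, beside 92.6% of all nuclear peaks) and 86 of 99 in the Col-0 list (86.9%, beside 88.1%) overlapped a peak of the other list. In the 86 one-to-one pairs the ndx1-4 peak was longer in 22 (25.6%), the Col-0 peak was longer in 43 (50.0%), and 21 were equal, beside 28.6% and 42.4% longer among all pairs. The median difference was -10 bases (ndx1-4 minus Col-0), less than the 20-base grid of the peak edges. In 10 pairs (11.6%) the lengths differed by 100 bases or more, beside 7.36% of all pairs. Peaks covered 4.10% of the members' body bases in the ndx1-4 list and 4.63% in the Col-0 list, beside 4.65% and 5.07% of all protein-coding bodies. The depth and calling of the lists and the genotype cannot be told apart.

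**Figure D4:**
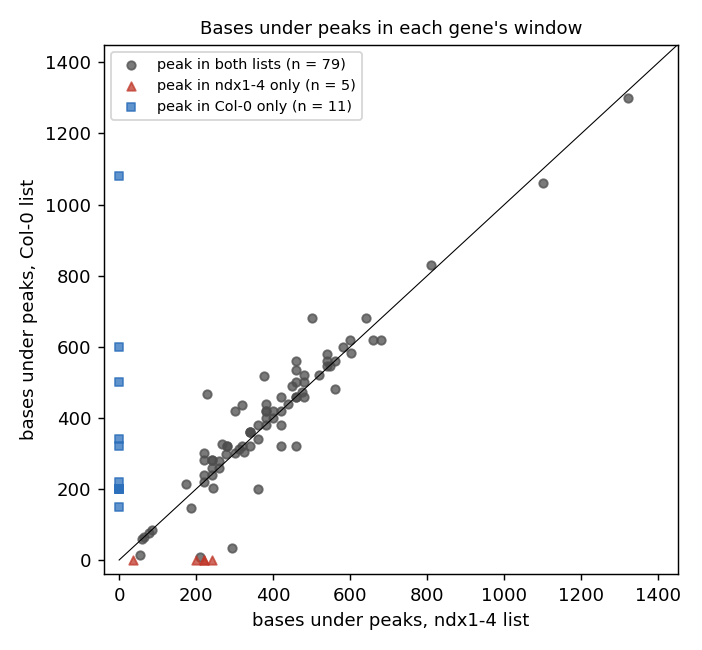
Bases under peaks in the body and 500-base flanks of each member with a peak, in the ndx1-4 list (horizontal axis) and the Col-0 list (vertical axis); the line marks equal values. Grey circles are the 79 members with a peak in both lists, red triangles the 5 in the ndx1-4 list only and blue squares the 11 in the Col-0 list only, the highest of which is AT1G64880 at 1080 bases.

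Among members with a peak in both lists, AT4G13170 had the most body bases under peaks. After it came AT2G44120, an L30/L7 gene, with 956 bases of its body under the ndx1-4 peak and 916 under the Col-0 peak, 739 of them in the 5' UTR in each list. AT1G80750, also of the L30/L7 family, had 680 bases in the ndx1-4 list and 620 in the Col-0 list. AT4G26230, for L31 of the large subunit, had 660 and 620 of its 1055 bases covered. GHS1 (AT3G27160), the S21 protein of the plastid ribosome, had 2 peaks in each list, with 600 bases in the ndx1-4 list and 620 in the Col-0 list. The small gene AT2G27535 had 560 and 600 of its 864 bases covered, and a peak at its neighbour PGY1 (AT2G27530), the L10a gene that acts in leaf polarity, fell in its window too. PSRP3/1 (AT1G68590), a plastid-specific ribosomal protein, had 540 and 580 bases, and AT5G08180, an L7Ae-type gene, 540 and 560. None of these 8 differed between the lists by more than 60 bases.

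A peak in the ndx1-4 list alone was seen at 5 members (1.64%, beside 1.96% of all protein-coding genes). All of these peaks were 280 bases or shorter and ranked at or below percentile 43.2 of the list. SAC52 (AT1G14320), an L10 protein, had a peak of 240 bases that began in the last 4 bases of the gene. EMB2296 (AT2G18020), of the L2 family, and AT1G67430, of the L22p/L17e family, had theirs past the gene end. Only 36 of the 280 bases of the EMB2296 peak lay in its window, and the peak also touched AT2G18025. The AT1G67430 peak also touched AT1G67440. AT3G04840, for S3a of the small subunit, had a peak of 200 bases between 90 and 289 bases past the start. NFD1 had a peak of 220 bases across coding sequence and intron, from 1291 to 1510 bases past the start. It is printed as the one of the 5 that lies wholly inside coding sequence and intron, with coding bases in capitals.
NFD1, AT4G30930, Chr4:15050241-15050460, minus strand: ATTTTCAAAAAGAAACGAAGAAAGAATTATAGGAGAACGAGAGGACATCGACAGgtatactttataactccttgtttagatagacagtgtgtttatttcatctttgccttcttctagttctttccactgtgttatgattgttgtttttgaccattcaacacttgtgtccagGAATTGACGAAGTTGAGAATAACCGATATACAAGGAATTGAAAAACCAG
Of its bases 103 were coding and 117 intronic, and its score of 64 stood at percentile 6.02.

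A peak in the Col-0 list alone was seen at 11 members (3.62%, beside 3.63% of all protein-coding genes). Here 3 peaks ranked high: AT1G64880, of the S5 family, had a peak of 1080 bases with 960 in coding sequence (score 189, percentile 93.7), AT2G42650 had 600 bases with 488 in coding sequence and 112 in the 3' UTR (score 220, percentile 96.6), and AT1G70190 had a peak of 880 bases (score 204, percentile 95.4) of which only 150 lay in its window. The bodies of AT1G64880 and AT2G42650 had 0 bases under an ndx1-4 peak. The other 8 members had peaks of at most 340 bases, with percentiles from 1.37 to 43.9. AT2G44860, of the L24e family, had 340 bases in its body, AT3G56020, for L41, 220, and STV1 (AT3G53020), an L24 protein that acts in gynoecium development, 145 at its start. RPL16B (AT4G18730) and AT5G09500, of the S19 family, had peaks past or across the gene end. AT3G02560, for S7, and AT3G57490, of the S5 family, had theirs upstream of the start. The RPL16B peak also touched the gene AT4G18740, and the AT3G02560 peak the gene AT3G02555. AT2G20450, for L14 of the large subunit, had 2 peaks, 1 upstream, which also touched AT2G20440, and 1 in its body. The body peak is printed for comparison with that of NFD1, coding bases in capitals.
AT2G20450, Chr2:8814501-8814720, plus strand: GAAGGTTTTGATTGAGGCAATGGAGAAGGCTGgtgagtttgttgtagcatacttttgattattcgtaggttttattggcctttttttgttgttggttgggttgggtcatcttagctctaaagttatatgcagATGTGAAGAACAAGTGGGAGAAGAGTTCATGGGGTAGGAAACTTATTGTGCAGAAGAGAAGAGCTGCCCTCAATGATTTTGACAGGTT
It holds 120 coding and 100 intronic bases, and its percentile was 19.9. Differences inside genes with peaks in both lists were smaller than at AT1G64880: AT1G33850, an S19 gene of 298 bases, had 228 window bases under the ndx1-4 peak and 468 under the Col-0 peak, both past its end, and AT2G37600 had a second peak of 260 bases over its end in the ndx1-4 list alone.

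**Figure D5:**
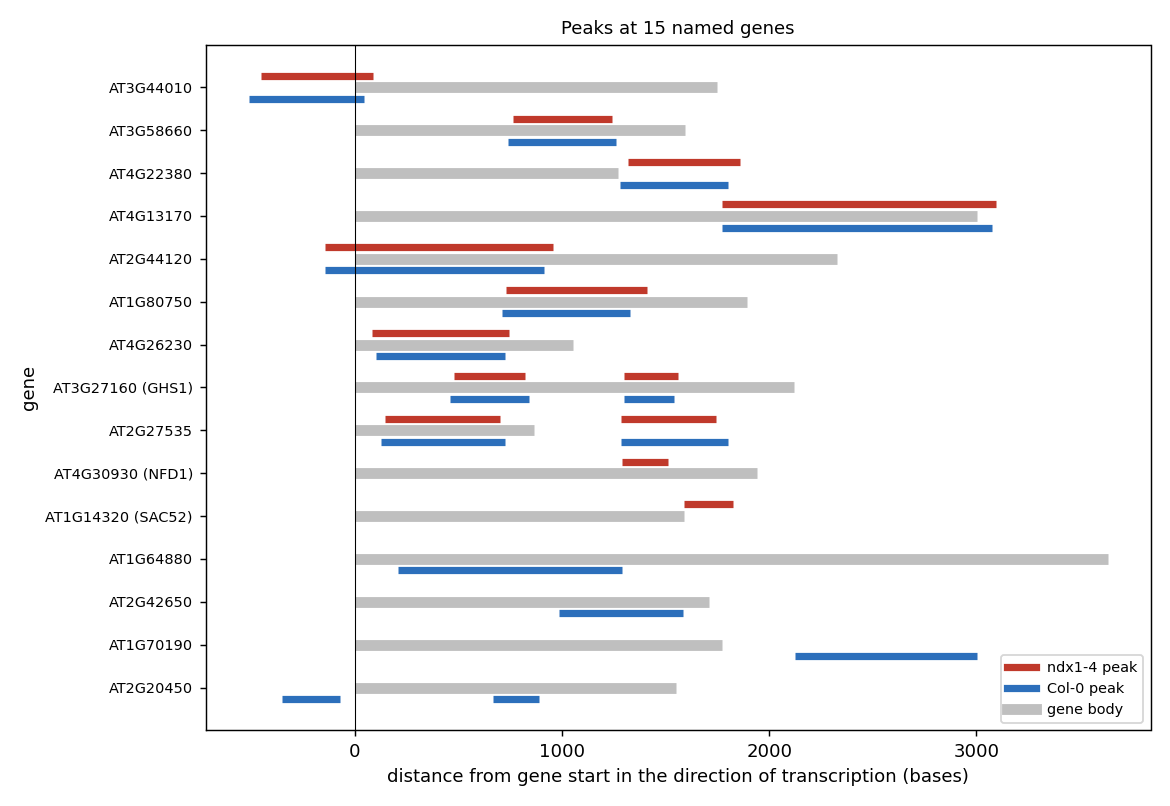
Peaks of the ndx1-4 list (red, above each gene) and the Col-0 list (blue, below it) at 15 named genes, by distance from the gene start in the direction of transcription (horizontal axis, bases); grey bars are gene bodies. The upper 9 genes have peaks at like positions in both lists, NFD1 and SAC52 in the ndx1-4 list only and the lowest 4 in the Col-0 list only.

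Other genes of the translation pathway, which were longer, had higher shares with a peak than the ribosomal protein genes, and the difference was not tested. Of 53 genes for ribosome biogenesis, by name nucleolar, nucleolin or pre-rRNA processing proteins, 31 had a peak in the ndx1-4 list (58.5%, 45.1 to 70.7%) and 36 in the Col-0 list (67.9%, 54.5 to 78.9%), beside length-weighted shares of all protein-coding genes of 37.2% and 38.9%. Of 126 translation factors 56 had a peak in the ndx1-4 list (44.4%, 36.1 to 53.2%) and 62 in the Col-0 list (49.2%, 40.6 to 57.8%), beside 39.6% and 41.4%. The name rule for these also takes transcription elongation factors, and without them 44 of 105 (41.9%) and 49 of 105 (46.7%) had a peak. The 105 still hold genes that are no translation factors by name, such as AT1G67360, a rubber elongation factor protein. No length-weighted share was computed for the 105. Aminoacyl-tRNA synthetases load tRNAs with amino acids. Of 61 genes taken by name for this group, 24 had a peak in the ndx1-4 list (39.3%) and 25 in the Col-0 list (41.0%), beside 41.3% and 43.1%. Not all of the 61 need be synthetases. AT4G16510 is named for a synthetase-associated domain, and the ligase name of AT5G12950 adds a domain of unknown function. The name rule for ribosome biogenesis also takes genes whose names state no such role. Examples are AT2G05590, a TLD-domain containing nucleolar protein, and AT1G45248, a nucleolar histone methyltransferase-related protein. The share without such genes was not computed. The ribosome biogenesis group, as named, was the only 1 of the 3 groups whose intervals lay wholly above the length-weighted share in both lists. Of its genes AT3G01160, an ESF1-like pre-rRNA processing protein, had 1000 body bases under the ndx1-4 peak and 1040 under the Col-0 peak, NUC-L2, a nucleolin, had 720 and 760, and AT5G66540, a U3 small nucleolar ribonucleoprotein, had 820 bases in the ndx1-4 list and 0 in the Col-0 list. It was the 1 gene of these 53 with a peak in the ndx1-4 list alone, beside 1.96% of all protein-coding genes. A peak in the Col-0 list alone was seen at 6 of the 53, beside 3.63%. Among these 6, AT5G57120, a nucleolar and coiled-body phosphoprotein, had 0 bases in the ndx1-4 list and 1120 in the Col-0 list. AT5G61330, an rRNA processing protein by name, had 0 and 1080. These counts were not tested. Among the translation factors EIF3A, a subunit of initiation factor 3, had 1160 bases in each list and EIF3C, another subunit, 840 in the ndx1-4 list and 800 in the Col-0 list.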

How the data were processed

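Peaks were deposited by the authors as 1 BED list per genotype, with a whole-number score per peak whose unit is not given in the sources used here. The submitters' processing notes name Bowtie2, SAMtools, Picard, deepTools and MACS2 and the TAIR10 build; versions, thresholds and the use of the input, RNase H and replicate libraries are not given in the sources used here. Starts lie on a 20-base grid. Per the labels no list belongs to 1 library, so depth is unknown, the intervals cover counting error only, and scores were never compared between lists. Peaks on chromosomes 1 to 5 were used (13549 in ndx1-4, 14180 in Col-0); 27 and 23 organelle peaks were left out. No peak passed a chromosome end of the RefSeq TAIR10.1 reference and 2 in each list ended at one, so its coordinates were used.

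A peak was linked to a gene by 1 shared base with the body or 500 bases on each side. Each base took the first of coding sequence, UTR and intron over all transcripts. Classes came from RefSeq notes, families from product names without a paralogue letter. Shares have 95% Wilson intervals and the median an order-statistic interval. The members and lists, and the groups of other pathway genes, were chosen with earlier results of these data known. Named genes were those with a peak in 1 list only, and per list the 8 highest-scoring and the 8 with most covered body bases. Also named were any with 3 or more peaks, and the 8 with the largest difference between lists. Of the families of 3 or more in which every gene or no gene had a peak, only some are named. Pathway genes named in the text and the genes given as examples were chosen after their values were seen. In a test on simulated data the overlap code recovered 200 of 200 planted genes. Python 3.11.15, numpy 2.4.6, scipy 1.17.1 and matplotlib 3.10.9 were used.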

Additional observations from a re-analysis of the deposited data

How the results depend on the processing

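No paired analysis was possible because the replicate libraries of ndx1-4 and Col-0 do not appear separately in the peak lists, and none could be dropped in turn. For the 9 main results 89 alternatives were run, 13 of them chosen after seeing the data; 59 stayed within counting error or within 1.5 times the count, 30 moved and 0 reversed. The member share stayed below that of the comparison genes in each alternative run.

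Counts of members with a peak in ndx1-4, in Col-0 and in both moved to 19, 28 and 18 with peaks of at least 500 bases, to 40, 42 and 36 with the higher-scoring 50%, to 55, 55 and 47 with peaks that touch no other gene, to 4, 4 and 4 among the 23 members whose names begin with 40S or 60S, and to 23, 23 and 21 among the 74 members without "family", "domain" or "like" in the name; each setting leaves fewer peaks or genes. The difference from all protein-coding genes moved to -2.17 points in Col-0 with peaks of at least 500 bases, and to -18.6 points in ndx1-4 and -20.2 points in Col-0 with 40S and 60S names. Against protein-coding genes in the members' length quartile range it was -3.44 points in ndx1-4 and -2.87 points in Col-0; with members held to that range too it was -10.0 and -8.13 points. The cause was not tested.

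The share of member peaks over the gene start was 17.2% in ndx1-4 and 18.2% in Col-0. In ndx1-4 it moved to 26.3% with peaks of at least 500 bases and to 26.9% when the peak centre had to lie within 250 bases of the start, and in Col-0 to 28.1% with the gene body only. It moved to 0% in both lists with 40S and 60S names, and to 7.14% in ndx1-4 and 10.3% in Col-0 with the shorter name rule. The median length moved to 580 bases in ndx1-4 and 600 bases in Col-0 with the length minimum, to 480 and 500 bases with the higher-scoring 50%, and to 330 bases in ndx1-4 with the shorter name rule.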

Other observations

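On chromosome 1, 27 of 68 ribosomal protein genes had a peak in the ndx1-4 list (39.7%, beside 36.5% of all protein-coding genes there) and 27 in the Col-0 list (39.7%, beside 38.5%). The members' share was lower than that of all protein-coding genes on the other 4 chromosomes in both lists. It was 20.4% in the ndx1-4 list and 24.5% in the Col-0 list on chromosome 2 (49 members, beside 35.2% and 36.8%), 30.3% and 34.2% on chromosome 3 (76 members, beside 36.4% and 38.5%), 22.2% in each list on chromosome 4 (36 members, beside 35.1% and 36.1%), and 21.3% and 22.7% on chromosome 5 (75 members, beside 36.0% and 37.5%). Differences between chromosomes were not tested.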
